A study of Mus musculus with 16 samples.

Results

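Chromatin accessibility in retinal ganglion cells at the peak of experimental autoimmune encephalomyelitis (EAE) was compared with that in cells of naive mice, gene by gene. The comparison used the 4 libraries titled peak and the 5 titled naive, which are 9 of the 16 libraries of the series. All libraries were made by ATAC-seq from ganglion cells isolated by flow sorting from eyes of female mice. The peak mice had EAE induced at 7 to 8 weeks of age and are labelled as being at the peak stage. The naive mice are labelled as controls with no disease stage, and no age is given for them. The induction protocol, the strain, the sorting markers and the time from induction to peak are not described here. Other stages, onset (3 libraries) and presymptomatic (4 libraries), serve to place the peak values. Their libraries also entered the fit behind the gene tests, and so its filter, scaling and estimate of spread. Whether each library is another animal is not in the labels, and the p-values therefore rest on library-to-library spread that may be partly technical.

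EAE is an autoimmune inflammation of the central nervous system in which myelin is attacked by T cells and macrophages. It commonly affects the optic nerve, which is formed by the axons of retinal ganglion cells, which carry visual signals to the brain. Loss of these cells is a known feature of the model. In ATAC-seq a transposase cuts open DNA preferentially, so read density is high at active promoters and enhancers and lower over gene bodies and closed chromatin.

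The unit of measurement matters for what follows. Each deposited count covered a gene's span trimmed by 1000 bp at each end, so for most genes it measured the body and not the promoter. For genes with spans under 2000 bp the counted window lay about the middle of the gene, and for spans under 1000 bp it took in the gene's start and flanking DNA. CPM values below are counts per M reads (M for 1e6), scaled by TMM, edgeR's correction for library composition. They depend on interval length and are compared only between libraries for 1 gene. A sample of bulk sorted cells does not separate a change in the share of a cell type from a change in accessibility within it.

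The peak libraries were shallower than the naive ones. Nuclear reads in gene intervals were 3.39, 3.70, 3.45 and 1.58 M in peak replicates 1 to 4, against 4.67, 15.1, 7.89, 5.04 and 6.88 M in naive replicates 1 to 5. The groups did not overlap, with means of 3.03 ± 0.978 M at peak and 7.92 ± 4.24 M in naive libraries (SD, n = 4 and 5). A two-sided exact permutation test gave p = 0.0159, the smallest this design allows, and 0.0370 after Benjamini-Hochberg adjustment over 7 library measures. The share of interval reads from the mitochondrial genome was 53.0 ± 11.6% at peak and 52.5 ± 9.34% in naive libraries (exact permutation p = 0.937). The ratio of read density in short genes, whose windows hold the start, over long gene bodies was 2.71 ± 0.539 at peak and 3.03 ± 0.831 in naive libraries (exact permutation p = 0.524). Olfactory and vomeronasal receptor genes, which serve smell and pheromone sensing in the nose, took 0.320 ± 0.113% of nuclear reads at peak and 0.346 ± 0.171% in naive libraries (exact permutation p = 0.952).

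A group of 3 libraries stood apart in a way that crossed the groups. The X chromosome gave 7.79% of nuclear reads in peak replicate 3, against 3.87, 4.64 and 3.79% in peak replicates 1, 2 and 4. It gave 8.18 and 7.10% in naive replicates 3 and 4, against 4.36, 3.33 and 3.66% in naive replicates 1, 2 and 5. X intervals made up 4.23% of the nuclear interval length. The same 3 libraries had the highest receptor shares, at 0.487% in peak replicate 3 and 0.562 and 0.495% in naive replicates 3 and 4, and the lowest density ratios, at 2.14 in peak replicate 3 and 2.33 and 2.22 in naive replicates 3 and 4. They also lay together on the first principal component, which held 27.5% of the variance, and 1.17% of that component lay between the groups. Peak replicate 1 stood apart on the second component (15.1% of the variance), and chromosome 2 gave 9.16% of its nuclear reads, against 6.90 to 7.82% in the other 8 libraries. List medians below are followed by their values with libraries left out, and genes by theirs where the call or the size moved.

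**Figure D1:**
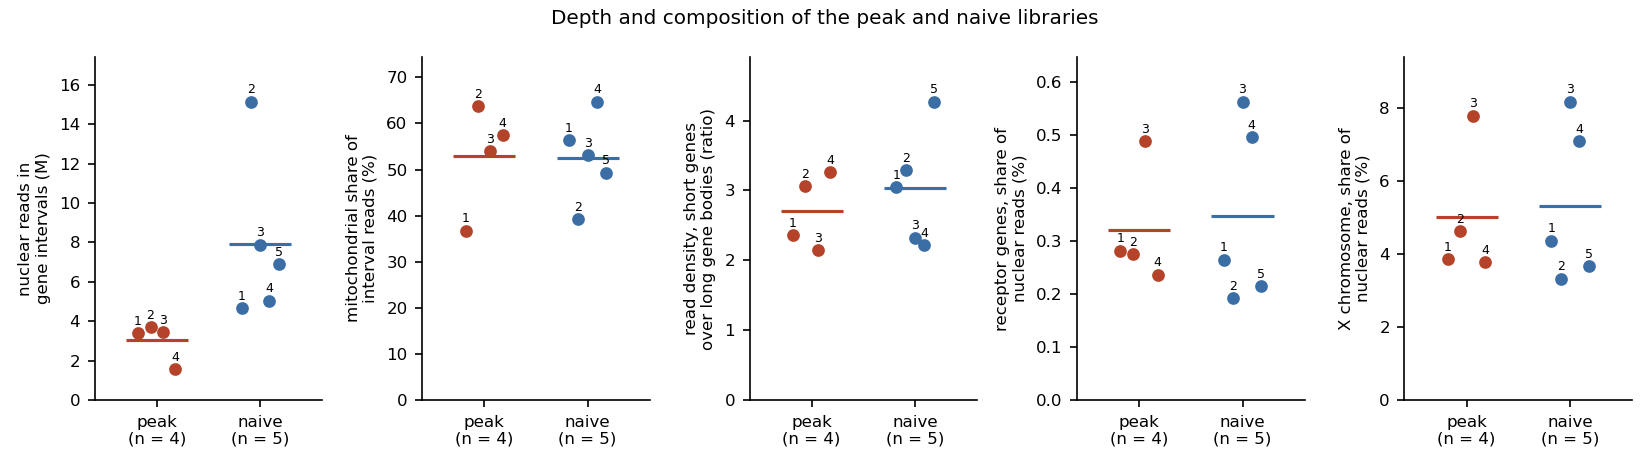
Each point is 1 library with its replicate number, peak left and naive right, and bars are means; the panels plot nuclear reads in gene intervals (M), the mitochondrial share (%), the density ratio of short genes over long gene bodies, the receptor share (%) and the X share (%). Nuclear reads separated the groups, at 1.58 to 3.70 M at peak and 4.67 to 15.1 M in naive libraries, whereas the groups overlapped in the other panels; in X share peak replicate 3 lay beside naive replicates 3 and 4.

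The labelled cell type was checked against markers. The median read density over 30 ganglion cell markers with a measurable interval was 0.751 to 1.53 reads per kb per M nuclear reads in peak libraries and 0.803 to 1.06 in naive libraries. Over all nuclear intervals it was 0.582 to 0.715 at peak and 0.528 to 0.647 in naive libraries. Rod markers lay at 0.731 to 1.62 at peak and 0.790 to 1.3 in naive libraries, and amacrine and horizontal cell markers at 0.887 to 1.31 at peak and 0.862 to 1.39 in naive libraries, so both ranges overlapped that of the ganglion cell markers. Cone markers lay at 0.674 to 1.02 at peak and 0.656 to 0.916 in naive libraries, and bipolar cell markers at 0.668 to 0.835 at peak and 0.542 to 0.837 in naive libraries. Markers of lymphocytes (0.389 to 0.594 at peak, 0.379 to 0.631 in naive libraries) and of microglia and macrophages (0.477 to 0.678 at peak, 0.388 to 0.600 in naive libraries) lay near the level of all intervals. Other non-neuronal lists did not. Pigment epithelium markers lay at 0.854 to 1.18 at peak and 0.848 to 1.14 in naive libraries. Müller glia and astrocyte markers lay at 0.602 to 0.997 at peak and 0.797 to 1.07 in naive libraries. These ranges overlapped that of the ganglion cell markers, so the densities do not set ganglion cells apart from these cell types. Endothelium and oligodendrocyte markers lay lower in naive libraries, at 0.544 to 0.703 and 0.556 to 0.716. At peak they lay at 0.551 to 0.925 and 0.612 to 0.88, and both ranges overlapped that of the ganglion cell markers. No ganglion cell marker was at 0 reads in all 9 libraries.

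No gene passed the test between peak and naive. Of 29902 genes tested with edgeR's quasi-likelihood test, 0 (0.0%) had an adjusted p under 0.05, and the smallest adjusted p was 1.00. At an unadjusted p under 0.05 there were 1080 genes (3.61%), of which 538 (1.80%) were higher and 542 (1.81%) lower at peak. The libraries of the groups did not overlap for 292 genes (0.977%), 150 above (0.502%) and 142 below (0.475%). Over all tested genes 47.1% had a fold change above 0. DESeq2 on the same counts called 1 gene (0.00334%), D6Ertd474e. Without the 3 libraries of high X share, edgeR called 0 genes with a smallest adjusted p of 0.122, and 1865 genes had an unadjusted p under 0.05, of which 853 were higher and 1012 lower. Scaling by library totals gave 333 higher and 200 lower.

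The precision of these folds sets what the empty list of calls can say. The median standard error of a log2 fold change was 0.39, and the median 95% interval reached 0.80 to either side. For 12828 genes (42.9%) the whole interval lay within 2.0-fold in either direction, and for 2329 (7.79%) within 1.5-fold. Precision followed interval length. The median standard error was 0.80 for spans under 1000 bp, where the median gene had 5.5 reads per peak library and 12.4 per naive library, and 0.22 for spans of at least 100 kb, with 417 reads per peak library and 1078 per naive library.

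**Figure D2:**
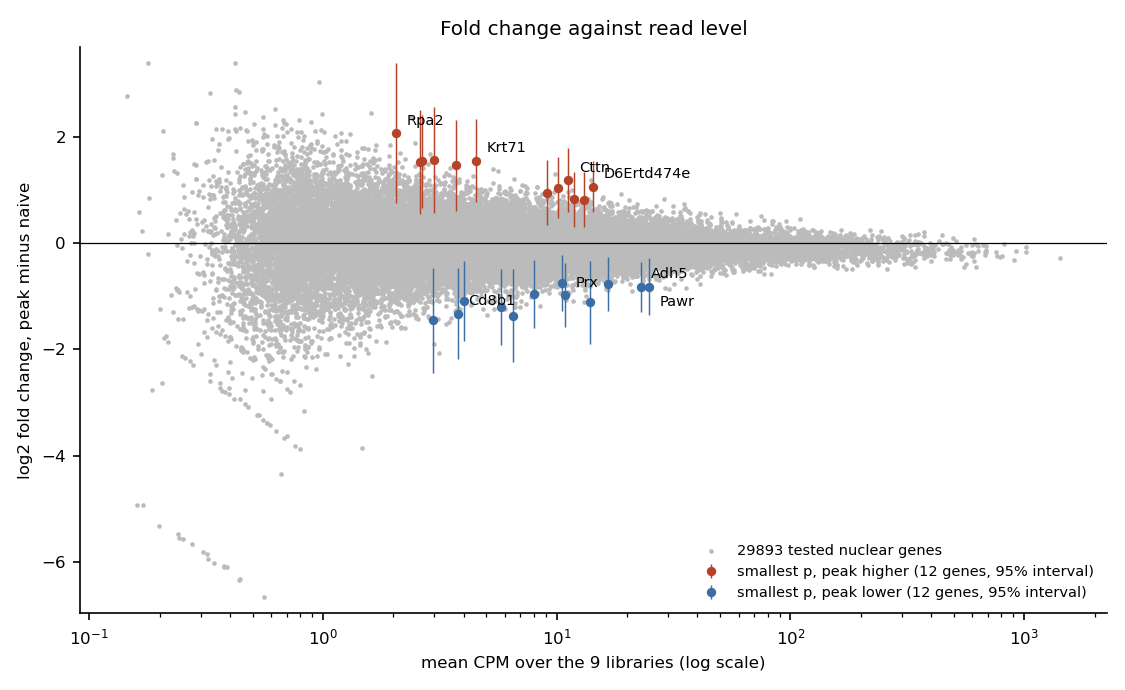
Each grey point is 1 tested nuclear gene, with its mean CPM over the 9 libraries on a log axis and its log2 fold change, peak minus naive; coloured points with 95% intervals are the 12 genes of smallest p on each side. The scatter widens toward low CPM, the diagonal rows at the lower left are genes with few or 0 reads at peak, and no gene passed an adjusted p of 0.05.

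D6Ertd474e, a transcribed mouse locus on chromosome 6 (positions 143245888 to 143297879 as deposited, plus strand), had the smallest p. It measured 18.6, 15.1, 26.3 and 20.8 CPM in peak replicates 1 to 4, against 9.51, 9.67, 10.3, 10.4 and 8.36 CPM in naive replicates 1 to 5. Every peak library lay above every naive library. The log2 fold change was 1.06 ± 0.24 (SE; 95% interval 0.58 to 1.55), with an unadjusted p of 0.000112 and an edgeR adjusted p of 1.00. DESeq2 gave 1.08 ± 0.22 with an adjusted p of 0.0365, the lowest over the alternatives, which ran up to 1.00. Without the 3 libraries of high X share the log2 fold change was 0.97 and the edgeR adjusted p 0.693. The interval overlaps 4930407I02Rik on the other strand, and the counting is not stated to use strand, so reads of the pair cannot be told apart.

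Krt71, a keratin of the hair follicle, measured 3.97, 10.8, 6.10 and 7.46 CPM at peak, against 3.63, 1.44, 3.14, 2.74 and 1.26 CPM in naive libraries (log2 fold change 1.55 ± 0.38). Cttn encodes cortactin, which binds branched actin. It measured 24.1, 15.0, 10.9 and 15.2 CPM at peak, against 7.80, 7.92, 4.37, 7.80 and 7.96 CPM in naive libraries (log2 fold change 1.19 ± 0.29). In both genes the lowest peak library lay above the highest naive library, by a small gap for Krt71. Kansl2, a subunit of the NSL histone acetyltransferase complex, averaged 5.78 ± 0.738 CPM at peak and 2.06 ± 1.06 CPM in naive libraries (SD), and 3 small RNA genes lie within it. Tada3, a subunit of the SAGA acetyltransferase complex, averaged 4.16 ± 1.32 CPM at peak and 1.44 ± 0.490 CPM in naive libraries. The groups did not overlap for either gene. All had an edgeR adjusted p of 1.00.

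Car5a, a mitochondrial carbonic anhydrase, averaged 14.2 ± 3.38 CPM at peak and 6.89 ± 1.56 CPM in naive libraries. Prkra encodes an activator of the double-stranded RNA kinase PKR and averaged 15.7 ± 2.24 CPM at peak and 8.82 ± 1.04 CPM in naive libraries. Naip2, a sensor of bacterial proteins that starts an inflammasome, measured 14.9, 19.95, 18.1 and 15.5 CPM at peak, against 9.62, 7.17, 7.66, 12.4 and 11.9 CPM in naive libraries. The groups did not overlap for these 3 genes, nor for Prodh2, a hydroxyproline dehydrogenase, or Pip5k1a, a phosphoinositide kinase. They overlapped for Rpa2, a subunit of the single-stranded DNA binding protein RPA, which had 0.642 CPM in peak replicate 3 and 2.99 to 5.67 CPM in the other peak libraries, against 0 to 1.71 CPM in naive libraries. Mief1, an adaptor of mitochondrial fission, also overlapped. Among larger folds, Bcl2l2, an inhibitor of apoptosis, averaged 3.503 ± 1.65 CPM at peak and 1.05 ± 0.178 CPM in naive libraries (log2 fold change 1.70 ± 0.61), with 1.28 CPM in peak replicate 2.

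On the lower side the smallest p belonged to Adh5, which encodes the glutathione-dependent enzyme that removes formaldehyde (chromosome 3, positions 138437200 to 138455499 as deposited, plus strand). It measured 13.6, 19.1, 17.2 and 13.99 CPM at peak, against 29.0, 25.1, 22.5, 22.7 and 42.4 CPM in naive libraries. Every peak library lay below every naive library. The log2 fold change was -0.82 ± 0.23 (95% interval -1.29 to -0.35), with an edgeR adjusted p of 1.00. Without the 3 libraries of high X share it was -1.03 with an adjusted p of 0.693.

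Ptgdr2, a prostaglandin receptor of type 2 helper T cells and eosinophils, measured 2.69, 5.42, 2.57 and 2.49 CPM at peak, against 10.0, 6.10, 4.37, 9.59 and 8.59 CPM in naive libraries, and the groups overlapped through peak replicate 2. Cd8b1, the beta chain of the CD8 coreceptor, averaged 2.06 ± 0.498 CPM at peak and 5.15 ± 1.95 CPM in naive libraries with no overlap (log2 fold change -1.33 ± 0.42), and -0.93 without the 3 libraries of high X share. Slamf8, a receptor of myeloid cells, measured 2.98, 1.14, 2.73 and 3.11 CPM at peak, against 6.20, 5.90, 4.67, 5.48 and 3.78 CPM in naive libraries, again with no overlap. Prx encodes periaxin, a protein of Schwann cell myelin. It measured 5.39, 8.12, 9.48 and 4.97 CPM at peak, against 13.5, 14.6, 9.73, 10.4 and 21.3 CPM in naive libraries, so that the groups were separate by a narrow gap. Its log2 fold change was -0.98 ± 0.29, and -1.39 without the 3 libraries of high X share. These values were gene-body reads in a sort of ganglion cells, and the part of other cells in them was not tested.

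The remaining genes of the lower side were of several kinds. Pawr, a protein that promotes apoptosis, averaged 17.4 ± 4.66 CPM at peak and 30.9 ± 8.55 CPM in naive libraries, with overlap. Tnks2, a tankyrase, and Cul2, a scaffold of ubiquitin ligases, overlapped too. Cpa5, a carboxypeptidase, did not overlap, at 6.56 to 9.02 CPM at peak and 10.1 to 15.6 CPM in naive libraries. Dsg1c, a desmoglein, averaged 8.37 ± 3.25 CPM at peak and 18.3 ± 10.6 CPM in naive libraries. Its naive mean rested on 30.2 and 29.0 CPM in naive replicates 3 and 4, and its log2 fold change was -1.12 with all libraries and -0.56 without the 3 of high X share. Slx, a germ cell gene of the X chromosome with near-identical copies, behaved likewise, with 9.42 and 7.59 CPM in naive replicates 3 and 4, and its log2 fold change was -1.43 with all libraries and -0.54 without those 3.

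**Figure D3:**
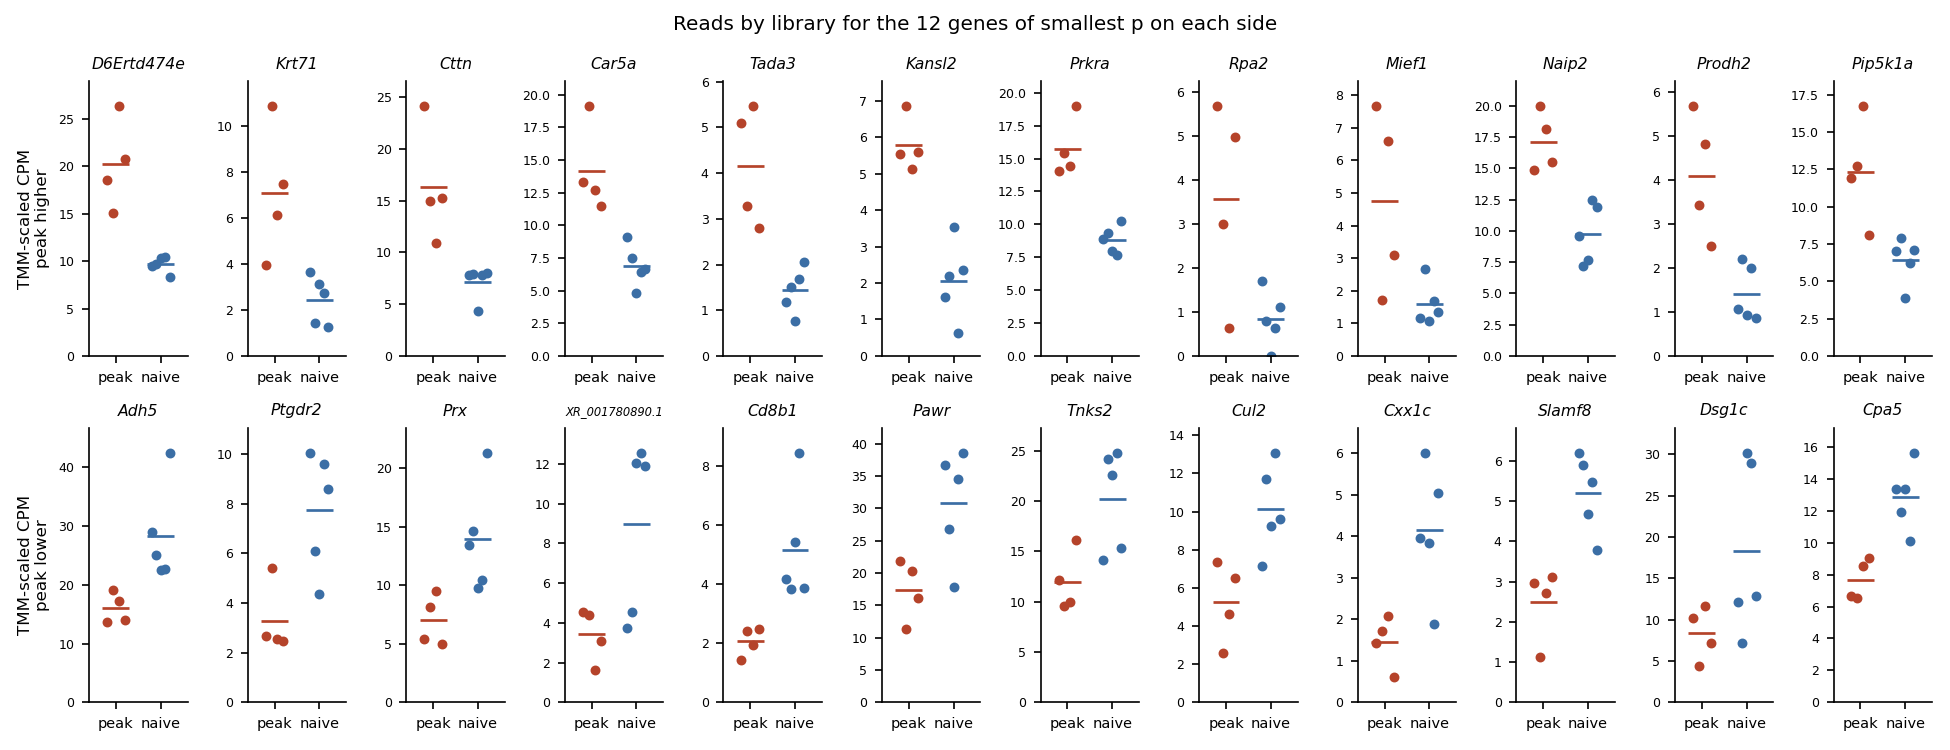
Each panel is 1 gene in TMM-scaled CPM, peak left and naive right, with a point per library and a bar at the mean; the upper row holds the 12 genes of smallest p that were higher at peak and the lower row the 12 that were lower. D6Ertd474e lies at 15.1 to 26.3 CPM at peak and 8.36 to 10.4 CPM in naive libraries. In the upper row the groups overlap for Rpa2 and Mief1. In the lower row they are separate only for Adh5, Prx, Cd8b1, Slamf8 and Cpa5 and overlap for the others.

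At the low end, 17 of the 29902 tested genes had 0 reads in all peak libraries. For naive libraries, which had more reads, the count was 0 genes. The 17 genes passed the filter on low counts through reads in other groups. The pooled naive level of Ccdc70, with 73 reads, was 7.76-fold that of 3 reads pooled over the 4 peak libraries. For Mrpl20, a mitochondrial ribosomal protein gene, it was 5.63-fold (53 naive reads), and for Zfp263, a zinc finger gene, 4.78-fold (45). These ratios leave out library-to-library spread and are not lower bounds, and the genes were picked for 0 reads at peak. None passed the test.

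The gene lists gave 720 tested members, and 0 of them were called. Counts below are to be read beside the 47.1% of all tested genes with a fold change above 0 and the median log2 fold change of -0.03 over them. The middle 50% of all genes lay between -0.27 and 0.24. When the 9 libraries were left out 1 at a time, the medians of 19 of the 36 lists took both signs.

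Ganglion cell markers had 22 of 30 tested members higher at peak (73.3%) and 8 lower, with a median of 0.19, and 0 members at an unadjusted p under 0.05 in either direction. Isl1, a transcription factor of ganglion and bipolar cells, measured 4.96, 17.1, 8.83 and 4.35 CPM at peak, against 5.98, 2.43, 7.66, 6.85 and 5.83 CPM in naive libraries. Peak replicates 2 and 3 lay above the naive range and the other 2 within it. Opn4, the melanopsin of light-sensing ganglion cells, averaged 3.40 ± 1.04 CPM at peak and 2.25 ± 1.16 CPM in naive libraries. Rbpms, a pan-ganglion cell RNA-binding protein, averaged 110 CPM at peak and 92.2 CPM in naive libraries (log2 fold change 0.25 ± 0.22), and Thy1, a surface antigen of ganglion cells, 4.79 CPM at peak and 5.21 CPM in naive libraries (-0.08 ± 0.44). Pou4f1, a POU factor of ganglion cells, gave 0.03 ± 0.60. Per library, the mean log2 CPM of the list was 2.86, 3.27, 2.77 and 2.30 at peak, against 2.78, 2.78, 2.93, 2.56 and 2.78 in naive libraries, so peak replicates 2 and 4 were the extremes of both groups. The count rested on peak replicate 2: without it 15 of 30 were higher (50%) and the median was 0.00. Leaving out the 3 libraries of high X share gave 24 of 30 higher, with a median of 0.14.

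For the other retinal neurons the medians moved with single libraries. Rods had 8 of 21 higher (median -0.04), cones 6 of 13 (-0.01), bipolar cells 5 of 15 (-0.02) and amacrine and horizontal cells 6 of 17 (-0.12). Leaving out peak replicate 2 put the rod median at 0.08 (13 of 21 higher) and leaving out peak replicate 4 at -0.29 (3 of 21). The amacrine and horizontal cell median was -0.34 (4 of 17 higher) without the 3 libraries of high X share and ran from -0.31 without naive replicate 4 to 0.02 without naive replicate 5. Over single libraries left out, that of cones ran from -0.07 to 0.05 and that of bipolar cells from -0.12 to 0.02. Kcne2, a potassium channel subunit kept among the cone markers, measured 0, 0.285, 0.321 and 1.55 CPM at peak, against 3.21, 2.98, 1.84, 2.74 and 1.66 CPM in naive libraries (unadjusted p = 0.00266, edgeR adjusted p = 1.00). The groups did not overlap, on few reads at peak. Pde6c, the cone phosphodiesterase, averaged 24.7 ± 8.99 CPM at peak and 17.4 ± 4.00 CPM in naive libraries with overlap. Tfap2c, a transcription factor of amacrine cells, averaged 8.36 ± 1.17 CPM at peak and 14.3 ± 4.82 CPM in naive libraries.

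Müller glia and astrocyte markers had 5 of 17 higher and 12 lower (median -0.25). Clu, which encodes clusterin, measured 1.84, 2.14, 3.69 and 3.73 CPM at peak, against 5.24, 6.14, 6.13, 3.06 and 5.83 CPM in naive libraries. Glul, the glutamine synthetase of Müller glia, averaged 2.80 ± 0.941 CPM at peak and 5.12 ± 2.01 CPM in naive libraries. Both overlapped between groups, through naive replicate 4 for Clu and naive replicate 3 for Glul, and their edgeR adjusted p was 1.00. The median was -0.12 without peak replicate 3, -0.14 without naive replicate 2 and -0.28 without the 3 libraries of high X share.

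Microglia and macrophage markers had 6 of 15 higher (median -0.18), lymphocyte markers 9 of 21 (-0.03), endothelium and pericyte markers 10 of 17 (0.16), pigment epithelium markers 4 of 13 (-0.12) and oligodendrocyte markers 5 of 14 (-0.02). The microglia median was 0.03 (8 of 15 higher) without the 3 libraries of high X share and 0.02 without naive replicate 5. That of endothelium was 0.01 without peak replicate 1 and 0.03 without the 3 libraries. Over single libraries left out, the pigment epithelium median ran from -0.24 to -0.02, that of lymphocytes from -0.13 to 0.03 and that of oligodendrocytes from -0.05 to 0.09. Adgre1, the macrophage antigen F4/80, averaged 22.5 ± 11.1 CPM at peak and 34.5 ± 15.0 CPM in naive libraries. Foxp3, the factor of regulatory T cells on the X chromosome, measured 22.96 CPM in peak replicate 3 and 3.69 to 5.60 CPM in the other peak libraries, against 3.95 to 9.12 CPM in naive libraries. Without peak replicate 3 its log2 fold change was -0.23, against 0.74 with it. Mal, a proteolipid of myelinating cells, measured 18.3, 6.98, 6.58 and 12.4 CPM at peak, against 5.24, 5.52, 8.27, 5.48 and 4.02 CPM in naive libraries (log2 fold change 0.95 ± 0.36, unadjusted p = 0.0136, edgeR adjusted p = 1.00).

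Inflammatory pathways were sorted by role. Cytokine receptors known on neurons had 10 of 19 members higher (median 0.04). Ifngr1, a chain of the interferon gamma receptor, averaged 12.3 ± 6.22 CPM at peak and 7.37 ± 3.27 CPM in naive libraries. Genes of NF-kB and cytokines had 11 of 19 higher (0.06), with Il1a, an alarm cytokine, at 3.22 ± 2.41 CPM at peak and 1.51 ± 0.375 CPM in naive libraries. Genes of the interferon response had 20 of 39 higher (0.00). Among these Dhx58, an RNA sensor, averaged 1.54 ± 0.814 CPM at peak and 3.31 ± 1.08 CPM in naive libraries, whereas Stat2, which carries the interferon signal to the nucleus, averaged 5.25 ± 1.45 CPM at peak and 2.84 ± 2.32 CPM in naive libraries. Antigen presentation had 8 of 17 higher (-0.09). Cd40, a costimulatory receptor, measured 9.78, 4.56, 2.25 and 5.91 CPM at peak, against 2.24, 3.46, 0.919, 1.90 and 3.47 CPM in naive libraries, and Tap1, the peptide transporter, averaged 0.872 ± 0.982 CPM at peak and 2.41 ± 1.28 CPM in naive libraries. Cd40 and Tap1 lay in opposite directions, and the groups overlapped for both. Over single libraries left out, the medians ran from -0.13 to 0.01 for cytokine receptors, -0.06 to 0.11 for NF-kB and cytokines, -0.14 to 0.02 for the interferon response and -0.18 to 0.17 for antigen presentation, so each took both signs.

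Complement had 10 of 16 tested members higher (62.5%), with a median of 0.31 and 0 at an unadjusted p under 0.05. C2, of the classical pathway, averaged 3.38 ± 2.32 CPM at peak and 1.91 ± 0.742 CPM in naive libraries, and Cfi, a protease that inactivates C3b, 12.2 ± 6.16 CPM at peak and 8.78 ± 2.74 CPM in naive libraries. C3, the central component, averaged 10.5 CPM at peak and 11.8 CPM in naive libraries. The median was 0.07 without peak replicate 1 (9 of 16 higher) and 0.14 without naive replicate 3. With all libraries thinned to equal depth 10 members were tested, 5 of them higher, and the median was 0.00.

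Stress, injury and activity genes had counts below or near the background of 47.1%. Axon injury genes had 8 of 25 higher (median -0.15), the integrated stress response 6 of 17 (-0.11), the unfolded protein and heat shock responses 6 of 14 (-0.16), and cell death genes 12 of 26 (-0.03). The axon injury median was -0.01 (12 of 25 higher) without peak replicate 1 and -0.24 (5 of 25) without peak replicate 2. That of the unfolded protein and heat shock responses was 0.13 (8 of 14) without the 3 libraries of high X share. With 1 library left out at a time, the stress response median ran from -0.20 to -0.06 and that of cell death from -0.08 to 0.11. Jun, a transcription factor induced by axon injury, measured 8.504, 17.96, 9.96 and 5.60 CPM at peak, against 17.8, 17.8, 13.3, 10.4 and 17.5 CPM in naive libraries, with peak replicate 2 beside the highest naive libraries. Bbc3, a p53 target that promotes apoptosis, averaged 16.01 ± 4.13 CPM at peak and 25.0 ± 13.1 CPM in naive libraries. Immediate early genes had 5 of 20 higher and 15 lower (-0.26). Fosb, an activity-induced partner of Jun proteins, measured 18.1, 26.4, 13.8 and 22.7 CPM at peak, against 30.1, 50.1, 21.8, 14.5 and 64.0 CPM in naive libraries, with overlap through naive replicates 3 and 4. Egr2, a zinc finger factor, averaged 12.5 ± 3.70 CPM at peak and 18.4 ± 4.23 CPM in naive libraries. The median of the immediate early genes was -0.44 without the 3 libraries of high X share, -0.43 without naive replicate 3, -0.15 without peak replicate 3 and -0.09 without naive replicate 5. With the density ratio of short genes as a covariate 10 of 20 were higher and the median was 0.00.

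Genes of neuronal function were measured more precisely because they are long. Synapse genes had 9 of 24 higher (median -0.10), ion channels 9 of 22 (-0.05), glutamate receptors 8 of 25 (-0.11), axon guidance genes 4 of 28 (-0.14) and clustered protocadherins 6 of 16 (-0.26). The 95% interval lay within 2.0-fold for 26 of the 28 axon guidance genes and 22 of the 25 glutamate receptor genes. Robo2, a receptor for Slit proteins, measured 408, 502, 642 and 525 CPM at peak, against 608, 550, 968, 788 and 616 CPM in naive libraries (log2 fold change -0.44 ± 0.21, edgeR adjusted p = 1.00). Kcnc1, a potassium channel of fast-spiking neurons, averaged 31.6 ± 10.7 CPM at peak and 48.5 ± 22.4 CPM in naive libraries. Genes of this length and level leaned the same way in general: of the 2792 tested genes with spans of at least 100 kb, 36.9% were higher at peak, and of the 946 genes over 100 CPM, 22.5% (median -0.10). The axon guidance median was -0.22 without peak replicate 2 and -0.07 without naive replicate 3. The protocadherin median was -0.38 (0 of 16 higher) without the 3 libraries of high X share, -0.39 (1 of 16) without naive replicate 3 and -0.04 (7 of 16) without naive replicate 5. Over single libraries left out, the median ran from -0.15 to 0.01 for synapse genes, -0.11 to 0.05 for ion channels and -0.23 to -0.02 for glutamate receptors, which stood at 0.01 without the 3 libraries. The protocadherins share long overlapping intervals, so their counts are not independent.

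Metabolic and growth lists had medians within the middle 50% of all genes or near its edge. Nuclear genes of oxidative phosphorylation had 18 of 25 higher (median 0.10), cholesterol synthesis 14 of 22 (0.07), the circadian clock 11 of 21 (0.00) and the cell cycle 13 of 18 (0.18), which became 9 of 18 (-0.01) without the 3 libraries of high X share. Without peak replicate 1 the oxidative phosphorylation list had 11 of 25 higher and a median of -0.04. Over single libraries left out, the median ran from 0.01 to 0.19 for cholesterol synthesis and from -0.12 to 0.08 for the clock. Cytosolic ribosomal proteins had 8 of 10 tested members higher (0.28), out of 24 listed, because most fell under the filter on low counts, and 6 of 9 (0.06) without peak replicate 1. The 9 tested genes of the mitochondrial genome had 4 higher (-0.04). This count was 0 of 9 (-0.29) without peak replicate 2, 7 of 9 (0.20) without peak replicate 1 and 7 of 9 (0.31) without the 3 libraries of high X share. Polycomb complexes and demethylases had 7 of 21 higher (-0.12), and reprogramming factors with DNA methylation enzymes 3 of 17 (-0.21). These medians ran, with single libraries left out, from -0.28 to -0.04 for Polycomb and from -0.24 to -0.12 for the reprogramming list. Tet3, which oxidises methylated cytosine, averaged 44.4 ± 7.45 CPM at peak and 55.6 ± 9.77 CPM in naive libraries.

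Hox genes, which pattern the body axis and are held silent by Polycomb in the retina, had 12 of 15 tested members higher (80.0%, median 0.29), out of 39 listed. Hoxc6 measured 4.82, 3.56, 2.41 and 1.87 CPM at peak, against 2.14, 2.43, 0.689, 0.633 and 0.473 CPM in naive libraries. Hoxc13 averaged 1.92 ± 0.731 CPM at peak and 0.602 ± 0.433 CPM in naive libraries. Both lie on chromosome 15, and their groups overlapped. The median was 0.09 without peak replicate 1 (8 of 14 higher), 0.12 without naive replicate 2, 0.12 without naive replicate 3 and 0.47 without naive replicate 1. On chromosome 15 as a whole 58.1% of 1162 tested genes were higher, with 53 higher and 14 lower at an unadjusted p under 0.05, and chromosome 18 lay the other way, with 34.8% of 830 higher and 5 higher against 30 lower. The share of nuclear reads on chromosome 15 was 3.63 to 3.96% at peak and 3.61 to 3.89% in naive libraries, and the groups overlapped for every chromosome.

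**Figure D4:**
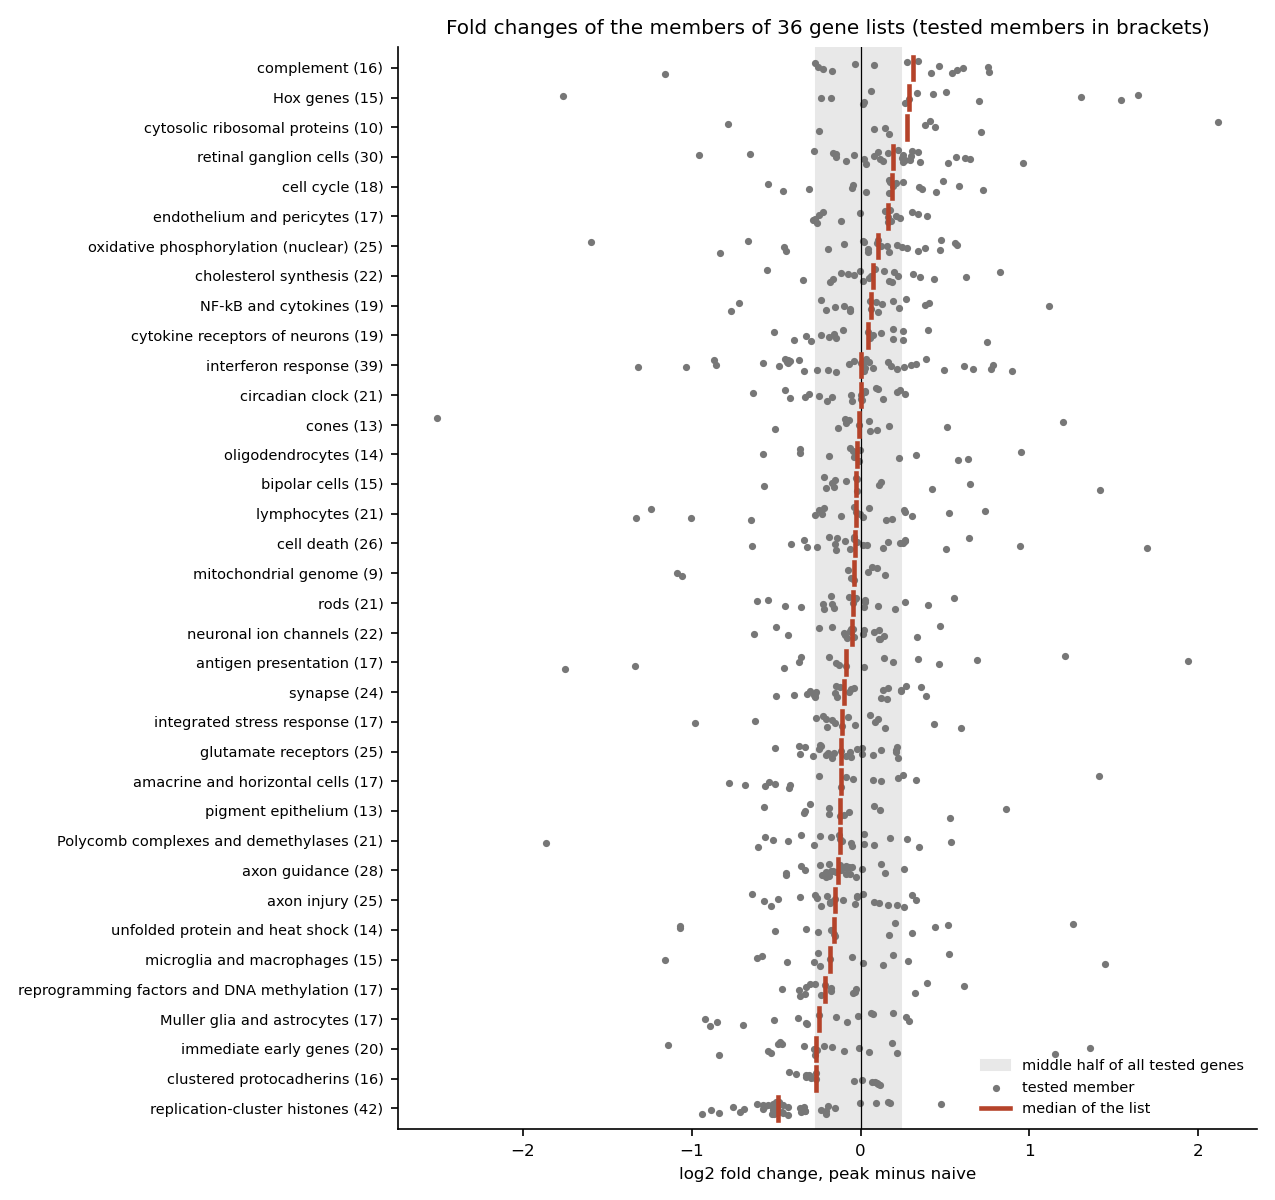
Each grey point is the log2 fold change, peak minus naive, of 1 tested member of a gene list, the red bars are list medians, and the shaded band is the middle 50% of all tested genes (-0.27 to 0.24). The medians run from -0.49 for the replication-cluster histones to 0.31 for complement, and 0 members passed an adjusted p of 0.05.

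The replication-dependent histone genes had the lowest median. These short intronless genes are transcribed mainly in S phase, from compact promoters that often hold CCAAT and TATA elements. Of 42 tested, 4 lay higher and 38 lower at peak (9.52% higher). Their median log2 fold change was -0.49, and 1 had an unadjusted p under 0.05. Most lie on chromosome 13 (35 of 42), and 37 have spans under 750 bp, so that their counted windows hold the promoter. Over all 1704 tested genes with spans under 1000 bp 42.5% were higher, with a median of -0.12. The 250 bases before the start are shown for 4 of them because their windows, unlike those of most genes, include these bases. They are RefSeq sequences of the GRCm38.p6 build on the gene's strand, 5′ to 3′, with CCAAT and TATAAA, read on either strand, in capitals.

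Hist1h2bf (chr13:23574208-23574457, minus strand): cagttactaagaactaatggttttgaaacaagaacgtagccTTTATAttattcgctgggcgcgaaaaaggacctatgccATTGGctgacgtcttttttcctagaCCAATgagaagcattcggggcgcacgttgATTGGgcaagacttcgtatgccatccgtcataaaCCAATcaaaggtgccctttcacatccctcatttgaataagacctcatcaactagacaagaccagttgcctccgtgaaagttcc
Hist1h2ae (chr13:23571221-23571470, minus strand): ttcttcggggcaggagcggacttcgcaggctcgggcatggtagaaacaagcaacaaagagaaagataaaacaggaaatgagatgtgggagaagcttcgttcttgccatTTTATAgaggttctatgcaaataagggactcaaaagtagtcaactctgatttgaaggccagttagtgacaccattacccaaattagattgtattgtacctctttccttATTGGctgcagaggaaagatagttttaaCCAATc
Hist1h2bj (chr13:22042948-22043197, plus strand): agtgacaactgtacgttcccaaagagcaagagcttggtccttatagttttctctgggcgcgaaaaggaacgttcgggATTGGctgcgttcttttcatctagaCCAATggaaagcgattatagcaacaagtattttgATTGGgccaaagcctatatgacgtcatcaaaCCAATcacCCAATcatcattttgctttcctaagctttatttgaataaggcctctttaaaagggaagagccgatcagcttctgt
Hist1h4c (chr13:23698459-23698708, minus strand): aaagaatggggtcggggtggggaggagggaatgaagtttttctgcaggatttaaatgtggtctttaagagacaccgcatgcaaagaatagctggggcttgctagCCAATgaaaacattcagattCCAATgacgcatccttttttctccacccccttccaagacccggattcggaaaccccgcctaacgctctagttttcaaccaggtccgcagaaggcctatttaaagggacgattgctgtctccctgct

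CCAAT occurred on either strand in 28 of the 34 histone promoters matched by symbol (82.4%), against 33.8% of 32851 RefSeq promoter windows of the same length. TATAAA occurred in 15 of the 34 (44.1%), against 12.4%. These matches are letters in a window and not sites, and they were counted wherever they lay in it. The TATAAA letters marked in Hist1h2bf and Hist1h2ae lie 209 and 142 bases before the start, on the other strand. Those of Hist1h2ae are the same bases as the match 43 bases before the start of Hist1h2bg, so they count for both genes. Histone promoters that face each other share bases, as those of Hist1h2bf and Hist1h2ad do, and 14 of the tested genes have windows that overlap that of another, so the members do not vary independently. The coding sequences are also near-identical copies, and how reads with several alignments were counted is not described, which leaves single members uncertain.

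Per library, Hist1h1e, a linker histone gene, measured 4.25, 8.69, 2.89 and 12.1 CPM at peak, against 11.8, 16.1, 7.43, 5.90 and 23.8 CPM in naive libraries (log2 fold change -0.94 ± 0.39, unadjusted p = 0.0214, edgeR adjusted p = 1.00). Hist1h2bf measured 6.09, 14.1, 5.94 and 9.95 CPM at peak, against 12.8, 22.7, 12.4, 3.80 and 31.0 CPM in naive libraries. Hist1h2ae measured 8.36, 15.0, 5.62 and 13.1 CPM at peak, against 13.996, 20.9, 10.8, 7.91 and 31.8 CPM in naive libraries. In all 3 genes naive replicate 5 was the highest library and naive replicate 4 the lowest of the naive ones, and the groups overlapped. The mean log2 CPM over the 42 genes was 2.40, 3.34, 2.34 and 3.55 at peak, against 3.19, 3.73, 3.01, 2.31 and 4.16 in naive libraries. These means overlapped, and the lowest of all was naive replicate 4. The density ratio of short genes over long bodies measures the same kind of window. It was 4.27 in naive replicate 5 and 2.22 in naive replicate 4. With that ratio as a covariate 11 of 42 histone genes were higher and the median was -0.21. Short histone genes are among the genes that make up the ratio. The covariate therefore takes in part of their own counts, and this fit cannot separate them from short genes in general. The median was -0.58 without the 3 libraries of high X share, a fit chosen after seeing the data. There 10 of the 42 had an unadjusted p under 0.05, beside 1865 of all 29348 genes tested in that fit. The histone count at that p was 0 without naive replicate 5 and 10 without naive replicate 4. The median was -0.30 without peak replicate 1, -0.27 without peak replicate 3 and -0.20 without naive replicate 5. In the other direction it was -0.70 (2 of 42 higher) without peak replicate 4, -0.62 (2 of 42) without naive replicate 4 and -0.59 (2 of 42) without peak replicate 2.

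Set among the stages, the peak was compared with onset and with the presymptomatic stage in the same model. These comparisons share the peak libraries with that against naive. Against onset, edgeR called 0 of 29902 genes (0.0%; smallest adjusted p 0.229), and 1987 (6.65%) had p below 0.05 before adjustment, of which 894 (2.99%) lay higher and 1093 (3.66%) lower at peak. Of all tested genes 52.1% had a fold change above 0. Scaling by library totals in place of TMM left 34 higher and 4687 lower at that p and put the median log2 fold change of all genes at -0.53, so directions against onset are relative to the TMM scale. DESeq2 called 5. Adh5, Nrl, Zfp263 and Gm41702 were lower at peak than at onset, and Emd, which encodes emerin of the nuclear envelope, was higher. Against the presymptomatic stage edgeR called 0 (0.0%; smallest adjusted p 1.00), and 1019 (3.41%) had p below 0.05 before adjustment, of which 660 (2.21%) lay higher and 359 (1.2%) lower, and DESeq2 called 0. Of all tested genes 53.3% had a fold change above 0, and library totals gave 70 higher and 809 lower at that p, with the median of all genes at -0.23. With the 3 libraries of high X share left out, a fit chosen after seeing the data, edgeR called 1 of 29348 genes between peak and presymptomatic. This gene was Gm9257, with an edgeR adjusted p of 0.00374.

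Adh5 averaged 28.3 ± 8.29 CPM in naive, 29.1 ± 3.20 in presymptomatic, 40.2 ± 0.489 in onset and 15.97 ± 2.63 in peak libraries (SD). Peak was thus the lowest stage, and the log2 difference of peak from onset was -1.33 ± 0.25 (edgeR adjusted p = 0.229, DESeq2 adjusted p = 0.00430). Prx had 13.9 ± 4.6, 13.8 ± 2.94, 18.6 ± 2.83 and 6.99 ± 2.17 CPM at the naive, presymptomatic, onset and peak stages, and Slamf8 5.21 ± 0.980, 6.68 ± 1.77, 6.27 ± 1.53 and 2.49 ± 0.913 CPM. In both genes the peak mean was the lowest. D6Ertd474e stood at 9.66 ± 0.836, 12.4 ± 1.08, 12.2 ± 1.105 and 20.2 ± 4.71 CPM, with peak highest, and its log2 difference of peak from onset was 0.72 ± 0.27 (edgeR adjusted p = 0.737). Krt71 had 2.44 ± 1.05, 4.00 ± 0.899, 3.36 ± 0.0955 and 7.09 ± 2.88 CPM.

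Nrl, the transcription factor that specifies rods, showed another order. It averaged 4.24 ± 1.21 CPM in naive, 3.11 ± 1.05 in presymptomatic, 9.93 ± 3.96 in onset and 2.82 ± 0.612 in peak libraries. The log2 difference of peak from onset was -1.85 ± 0.41 (DESeq2 adjusted p = 0.0477, edgeR adjusted p = 0.569), and that of peak from naive was -0.61 ± 0.37. Of the rod list, 1 of 21 tested members had a higher value at peak than at onset beside 52.1% of all genes, with 11 at an unadjusted p under 0.05, 0 called by edgeR and a median of -0.75. The mean log2 CPM of the rod list was 3.36, 2.95, 3.42 and 3.98 in peak libraries, against 3.94, 3.99 and 4.90 in onset libraries. Onset replicate 3 was the highest, and without it 2 of 21 rod genes were higher at peak, 3 had an unadjusted p under 0.05 and the median was -0.47. That library also had a mitochondrial share of 8.36%, against 34.4 to 64.7% in the other 15 libraries of the series, and its part in the difference beyond these values was not tested.

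**Figure D5:**
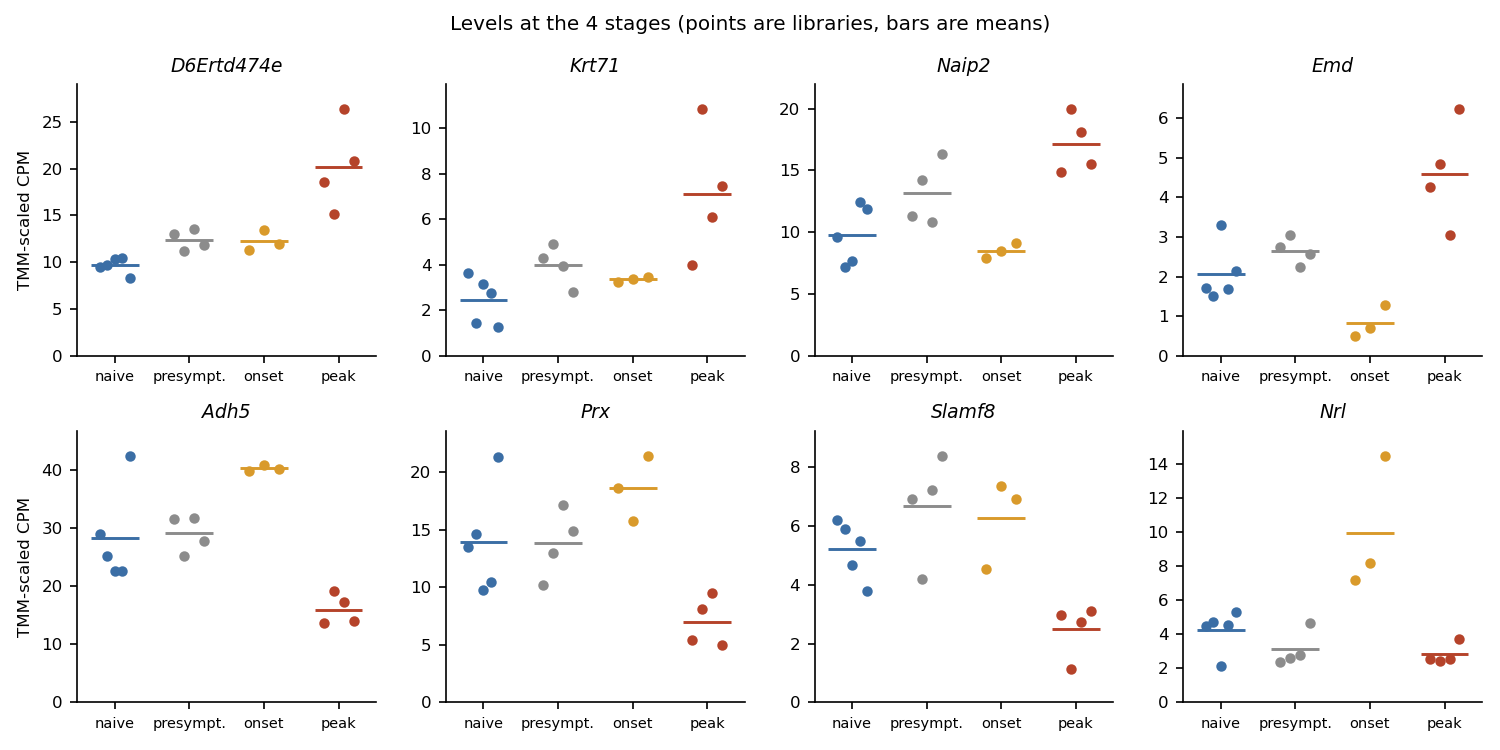
Each panel is 1 gene in TMM-scaled CPM at the naive, presymptomatic, onset and peak stages, with a point per library and a bar at the mean. The peak mean is the highest of the 4 stages for D6Ertd474e, Krt71, Naip2 and Emd and the lowest for Adh5, Prx, Slamf8 and Nrl, which were chosen for a difference at peak.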

How the data were processed

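The series holds ATAC-seq of sorted mouse retinal ganglion cells, with transposition per the labels' protocols at 37 °C for 30 min and 10 PCR cycles. The deposited table gives the authors' read counts for 37255 gene intervals in 16 libraries, with RPKM values per the file headers. The RPKM values were used only to find the interval length, which was the span trimmed by 1000 bp at each end. Cutadapt, HISAT2 and HTSeq are named in the submitters' processing notes, and the genome build of the deposited coordinates was not given there. No read shift or duplicate removal is stated.

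Counts were fitted with edgeR 4.0.16 in R 4.3.3 (quasi-likelihood test, TMM, filterByExpr with a minimum count of 10 and a minimum total of 15). All 16 libraries entered 1 fit with 4 group means, which share 1 estimate of the spread, and p-values were adjusted over 29902 genes by Benjamini-Hochberg. Library measures were compared with exact two-sided permutation tests in scipy 1.17.1. DESeq2 1.42.0, limma 3.58.1, other scalings and filters, thinning, covariates and leaving out libraries made 24 alternatives, and 2 more were chosen after seeing the data. The fitting script was tested on simulated data.

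Named genes were the 12 of smallest p in each direction among 15336 genes with a mean of at least 2 CPM and an interval of at least 500 bp, genes of large fold, and leading members of 36 lists; some names are not reported here. The members and lists were chosen with earlier results of these data known. C3, Rbpms, Thy1, Pou4f1, the genes at 0 reads, the stage examples and the printed promoters were chosen after their values were seen. Promoter sequences come from RefSeq (GRCm38.p6). Peak reads numbered 1.58 to 3.70 M a library and naive reads 4.67 to 15.1 M, and shares carry counting error that these totals limit.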

Additional observations from a re-analysis of the deposited data

Results flagged for a closer look

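Among 74 groups of 4 or 5 libraries examined, 3 held a library far from the others, and chance flags about 1 in 20 groups. Nuclear reads were 1.576 M in peak replicate 4, against 3.388 to 3.702 M in the other peak libraries. Cttn measured 4.366 CPM in naive replicate 3, against 7.799 to 7.961 CPM in the other naive libraries. Ptgdr2 measured 5.416 CPM in peak replicate 2, against 2.487 to 2.693 CPM in the other peak libraries.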

How the results depend on the processing

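The count of genes called by edgeR between peak and naive was 0 in every edgeR and limma alternative. DESeq2 called 1 gene against naive and 5 against onset. Same-numbered peak and naive libraries correlated at 0.106, 0.0192, 0.373 and -0.129 in their deviations, so the numbers were not taken as pairs; a fit with the replicate block called 0 genes and left 784 at an unadjusted p under 0.05, against 1080 without it. That count was 533 with library totals and 1665 with the receptor share as a covariate, each of 29902 tested genes. It was 557 of 26284 with the peak and naive libraries alone and 717 of 22267 with libraries thinned to equal depth. It was 1788 of 29803 without peak replicate 3 and 1865 of 29348 without the 3 libraries of high X share. Leaving out 1 library at a time, the difference of peak from naive ran from -5.706 to -3.089 M for nuclear reads. It ran from -22.71 to -15.79 M for all reads and from -5232 to -3374 for intervals with at least 10 reads. With fewer libraries the exact permutation test has a larger smallest p, and none of these differences kept an adjusted p under 0.05. The difference in mitochondrial share ran from -3.136 to 5.878 percentage points, being -1.043 without peak replicate 4, -2.867 without naive replicate 2 and -0.3575 without naive replicate 5. That in receptor share ran from -0.08184 to 0.02805, being 0.001895 without peak replicate 4 and 0.01137 without naive replicate 4. Among named genes, log2 fold changes turned sign for Foxp3 (-0.2339 to 0.9897 over libraries left out), Traf1 (-0.03976 to 0.6476) and ND4 (-0.01327 to 0.3764, and -0.008254 without peak replicate 2). The cause was not tested. The other 3344 values of named genes kept their direction and side of the threshold, and 1 passed it only under DESeq2. The named genes were chosen by small p in these same libraries, with an adjusted p far above 0.05. This count therefore does not measure how reliable their differences are. Depth limits short genes most.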
